A study of Mus musculus with 12 samples.

Results

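The question here was whether the hippocampal transcript response to kainate differed between mice labelled control and mice labelled mutant. For each probe set, a set of short array probes that reads one transcript, the response to kainate was the log2 value after kainate minus the log2 value after saline. The measure was the response in labelled mutants minus the response in controls, called the difference of responses below, so that 1 on this scale is a 2-fold larger or less negative response in labelled mutants. It was taken within each of the replicate numbers 1, 2 and 3 that the groups share, and as the mean of the 3. All 12 arrays of the series entered, and 6334 of 12411 probe sets qualified, by a log2 value over 4 in at least 3 arrays.

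The RNA came from hippocampi of male and female littermate mice aged 5 to 6 weeks, which had been housed singly and handled for 5 days. The 4 groups of 3 arrays were control mice given saline, control mice given kainate at 20 mg/kg, and labelled mutants given saline or the same dose of kainate. The drug was given intraperitoneally, hippocampi were taken 1 h later, and each array, an Affymetrix mouse MG-U74B, read a pool of 3 animals. By its title the series concerns mice lacking CREB and CREM. The sources used here give neither the alleles, nor any Cre driver, nor the cells that had lost either gene.

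CREB, encoded by Creb1, and its relative CREM are transcription factors that bind the cAMP response element, or CRE. Calcium and cAMP signals activate kinases that phosphorylate CREB, which then recruits the coactivators CBP and p300. The Crem gene also encodes inducible repressor forms from an internal promoter. Kainate opens ionotropic glutamate receptors, drives hippocampal neurons into seizure activity, and within an hour raises immediate early genes. Many of these genes carry a CRE as well as sites for serum response factor, so that several pathways meet on them.

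The targeted genes were checked first. The Creb1 probe set read 7.58, 7.51 and 6.94 in control saline arrays, 7.14, 6.97 and 6.83 in control kainate arrays, 8.33, 8.26 and 8.10 in labelled mutant saline arrays, and 8.47, 7.64 and 7.82 in labelled mutant kainate arrays. Every labelled mutant array was above every control array, which is the opposite of a loss, and the sources used here do not place these probes relative to a deletion. The animals are therefore called labelled mutants throughout, and each direction given below rests on that label. The Crem probe set stayed between 2.82 and 3.35 in all 12 arrays, under the level needed for testing, and checks nothing. Median levels of the arrays over all probe sets ran from 3.77 to 4.07, and the highest were those of control kainate array 3 at 4.07 and labelled mutant saline array 3 at 4.04. Markers of hippocampal excitatory neurons were well measured, with mean levels of 10.7 for Slc17a7, a vesicular glutamate transporter, and 8.47 for Fibcd1, a marker of CA1. In whole tissue, fewer cells of a type and less RNA per cell cannot be told apart.

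Genes such as Dusp5, Csrnp1 and Trib1 responded strongly in both genotypes, and no probe set passed the test for a difference of responses. Limma with Benjamini-Hochberg adjustment over all 6334 probe sets called 0 of them at an adjusted p of 0.05, which is 0%, and the lowest adjusted p was 1. Without adjustment, 32 probe sets (0.505%) had p under 0.05 with a higher response in labelled mutants and 115 (1.82%) with a lower one. With the replicate number as a block, these counts were 158 and 408, the lowest adjusted p was 0.281, and still 0 passed. In the fit without the block, which gave every 95% interval below, the median standard error of a difference was 0.25. The median 95% interval reached 0.55 to either side, a factor of 1.47. For Dusp5 the standard error was 0.16 without the block and 0.12 with it, and for Acsl4 it was 0.19 in both. It was 0.27 and 0.17 for Nop14, 0.27 and 0.20 for Spty2d1, and 0.18 and 0.19 for Zfp273. A probe set that missed the threshold was therefore not shown to respond alike in both genotypes. For a typical probe set, only differences well beyond that factor were resolvable in the fit without the block, with 3 arrays a group.

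The differences of responses were mostly small. Their mean over the 3 numbers had a median of -0.02 and a standard deviation of 0.26 across probe sets, and the 5th to 95th percentile ran from -0.42 to 0.42. Only 11 probe sets lay above 1 and 3 below -1, and 146 lay beyond 1.5-fold in either direction. Among the 11 was a probe set of the Y-linked gene Kdm5d, at 1.25, with responses of -0.66 in controls and 0.59 in labelled mutants. How the sexes were spread over the pools, and any part of this in the differences, was not tested. Number 3 spread widest, with a standard deviation of 0.48 against 0.39 for number 1 and 0.31 for number 2. The differences from separate numbers resembled each other little across probe sets, which share arrays and cannot stand in for replicates. Pearson's r was 0.134 between numbers 1 and 2, 0.17 between 1 and 3, and 0.0627 between 2 and 3.

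In all 3 numbers the difference was above 0 for 823 probe sets (13.0%) and below 0 for 1338 (21.1%). The excess of lower values lay among dim probe sets. Probe sets were split by mean level into 4 bins of equal size. In the lowest bin, from 3.32 to 4.71, the median difference was -0.17, and 673 of 1584 probe sets were lower in all 3 numbers against 81 higher. In the highest bin, from 7.36 upward, the median was 0.04, and 310 were higher in all 3 numbers against 128 lower. The median in the lowest bin was -0.14 for number 1, -0.06 for number 2 and -0.38 for number 3. The same difference taken on the array medians over all 12411 probe sets was -0.13, -0.04 and -0.40, which is the same order over the numbers. Taken on the medians over the tested probe sets it was 0.04, -0.03 and 0.07. After quantile normalization, which gives every array the same distribution, the median of the lowest bin was -0.03. The 115 probe sets with a lower response and unadjusted p under 0.05 had a median level of 4.24, the 32 with a higher response 6.17, and all tested probe sets 5.88. Of the split between 32 and 115, 21.8% were higher. That share was 43.3% (29 against 38) with arrays centred on their medians and 52.6% (41 against 37) after quantile normalization. With the replicate block after quantile normalization the counts were 187 higher and 291 lower. The split of the unadjusted calls thus depended on the scaling of the arrays. The count of one sign in all 3 numbers kept more lower than higher probe sets under each scaling, at 738 higher against 1372 lower with arrays centred and 839 against 1179 after quantile normalization.

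**Figure D1:**
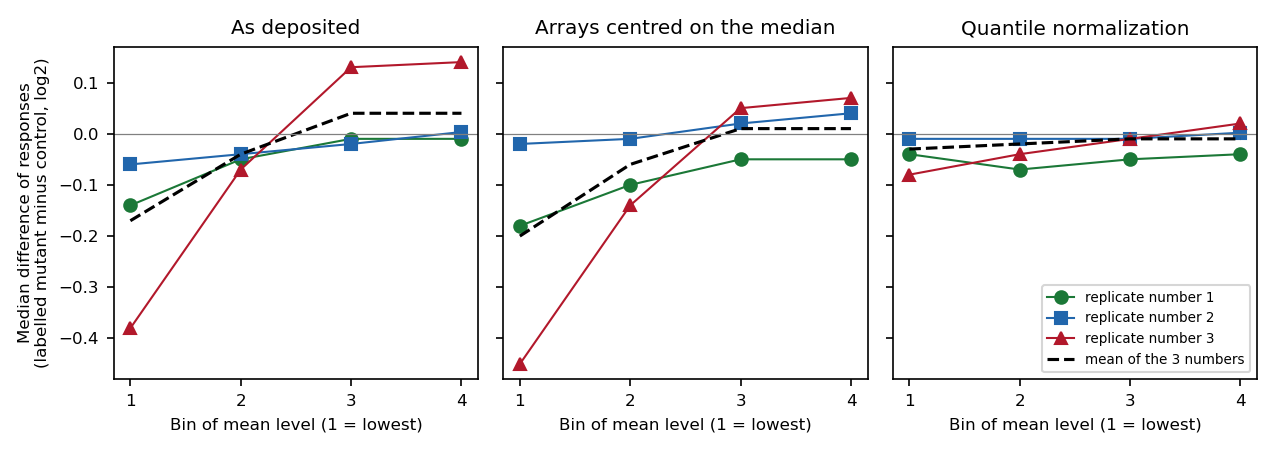
Difference of responses, in log2 units, by bin of mean level (4 bins of equal size, 1 is the lowest), for the values as deposited, with arrays centred on their medians and after quantile normalization. Lines join the medians of each replicate number and of the mean. In the deposited values the lowest bin sits at -0.14, -0.06 and -0.38 for numbers 1, 2 and 3, and after quantile normalization at -0.04, -0.01 and -0.08.

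Opposite responses in the genotypes were more often positive in controls, and fewer so after rescaling. Kainate values were above saline in all 3 control numbers and below it in all 3 labelled mutant numbers for 229 probe sets (3.62%). The reverse held for 31 (0.489%). After quantile normalization these counts were 102 and 41, and with arrays centred on their medians 112 and 24.

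Over all tested probe sets the mean differences ran from -1.51 to 1.39. Among genes that met the naming rule, Dusp4 had the largest positive difference and Spty2d1 the largest negative one. They were the extremes of 24 genes, 12 in each direction, taken by size from the 126 probe sets (31 higher, 95 lower) that had 1 gene symbol, unadjusted p under 0.05 and one sign in all 3 numbers. Because these values chose the genes, their differences are given as a description. None of the 24 passed after adjustment in limma with Benjamini-Hochberg, where the adjusted p was 1 for each and between 0.281 and 0.545 with the replicate block.

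Dusp4 encodes a nuclear phosphatase that inactivates MAP kinases and is itself induced by them. Its probe set read 5.95, 6.28 and 6.03 in control saline arrays and 6.33, 6.30 and 6.42 in control kainate arrays. In labelled mutants it read 6.20, 6.34 and 6.27 after saline and 7.46, 7.98 and 7.49 after kainate. Only the labelled mutant kainate arrays stood apart, all 3 above every other array. The response was 0.26 in controls, a factor of 1.20, and 1.37 in labelled mutants, a factor of 2.59. The difference was 1.11 (95% interval 0.63 to 1.59), made of 0.89, 1.62 and 0.83 over the 3 numbers. A second Dusp4 probe set, at levels of 4.59 to 5.24, had a difference of -0.20 (95% interval -0.62 to 0.22), so the gene's probe sets disagreed. In labelled mutants the first probe set rose with kainate (limma, Benjamini-Hochberg adjusted p = 0.00383).

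Ccdc86 encodes a coiled-coil protein of the nucleus and nucleolus. Its values were 5.35, 5.59 and 5.68 in control saline arrays, 5.43, 5.61 and 5.53 in control kainate arrays, 5.87, 5.77 and 5.67 in labelled mutant saline arrays, and 6.47, 6.74 and 6.90 in labelled mutant kainate arrays. As for Dusp4, only the last group was set apart. The response was -0.02 in controls and 0.94 in labelled mutants, where it rose (limma, Benjamini-Hochberg adjusted p = 0.0247), and the difference was 0.95 (95% interval 0.52 to 1.39).

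Depp1, a target of FOXO factors linked to autophagy, read 3.64, 3.70 and 3.78 in control saline arrays and 4.16, 4.48 and 4.71 in control kainate arrays. In labelled mutants it read 3.20, 3.48 and 2.59 after saline and 4.65, 4.56 and 4.51 after kainate. The kainate arrays of both genotypes overlapped, while the labelled mutant saline arrays were all below the control saline arrays. Its difference of 0.74 (0.92, 0.30 and 0.99) thus came mainly from the saline side. Every saline array of both genotypes read below 4, so the probe set met the filter through its kainate arrays alone. The difference therefore rests on values under the level needed for testing.

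Acsl4, which activates long-chain polyunsaturated fatty acids such as arachidonic acid, read 5.34, 4.85 and 4.92 in control saline arrays and 4.15, 3.91 and 4.17 in control kainate arrays, where it fell by 0.96 (limma, Benjamini-Hochberg adjusted p = 0.0237). Labelled mutants started lower, at 4.07, 4.26 and 4.37 after saline, and read 3.99, 3.96 and 3.96 after kainate. The difference was 0.70 (95% interval 0.27 to 1.13), and again the saline arrays parted the genotypes while the kainate arrays overlapped. Those kainate arrays read 3.91 to 4.17, around the level of 4 used in the filter.

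The other 8 genes with a higher difference were Nipa2, a magnesium transporter gene (0.90), Cyp2d22, a cytochrome P450 gene (0.89), Ttc14 (0.83), Dbt, a subunit of the branched-chain ketoacid dehydrogenase (0.76), Zfp280c (0.71), Mark1, a kinase acting on microtubule-associated proteins (0.68), Tmem94 (0.64) and Fam204a (0.62). Of all 12, 2 had a positive mean response in both genotypes, 3 a negative one in both, and 7 a negative response in controls with a positive one in labelled mutants. Nipa2 illustrates the last kind, at 8.37, 7.83 and 8.34 in control saline arrays, 7.63, 7.40 and 7.35 in control kainate arrays, 7.79, 7.43 and 7.41 in labelled mutant saline arrays and 8.13, 7.78 and 7.25 in labelled mutant kainate arrays. Its other probe sets gave 0.14 and 0.26. The gap between genotypes was larger after kainate than after saline in 6 of the 12, and in 9 of the 12 largest lower genes below. Besides Depp1 and Acsl4, the saline gap was the larger one for Tmem94, Nipa2, Ttc14 and Mark1. Labelled mutant minus control was -0.63, -0.64, -0.59 and -0.43 in these after saline, and 0.01, 0.26, 0.24 and 0.25 after kainate. All 12 kept an unadjusted p under 0.05 after quantile normalization. Without number 1, 2 or 3, the genes that kept it were 10, 6 and 7 of the 12. When the 3 differences, 1 per number, were tested on their own, 0 of the 12 kept it.

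**Figure D2:**
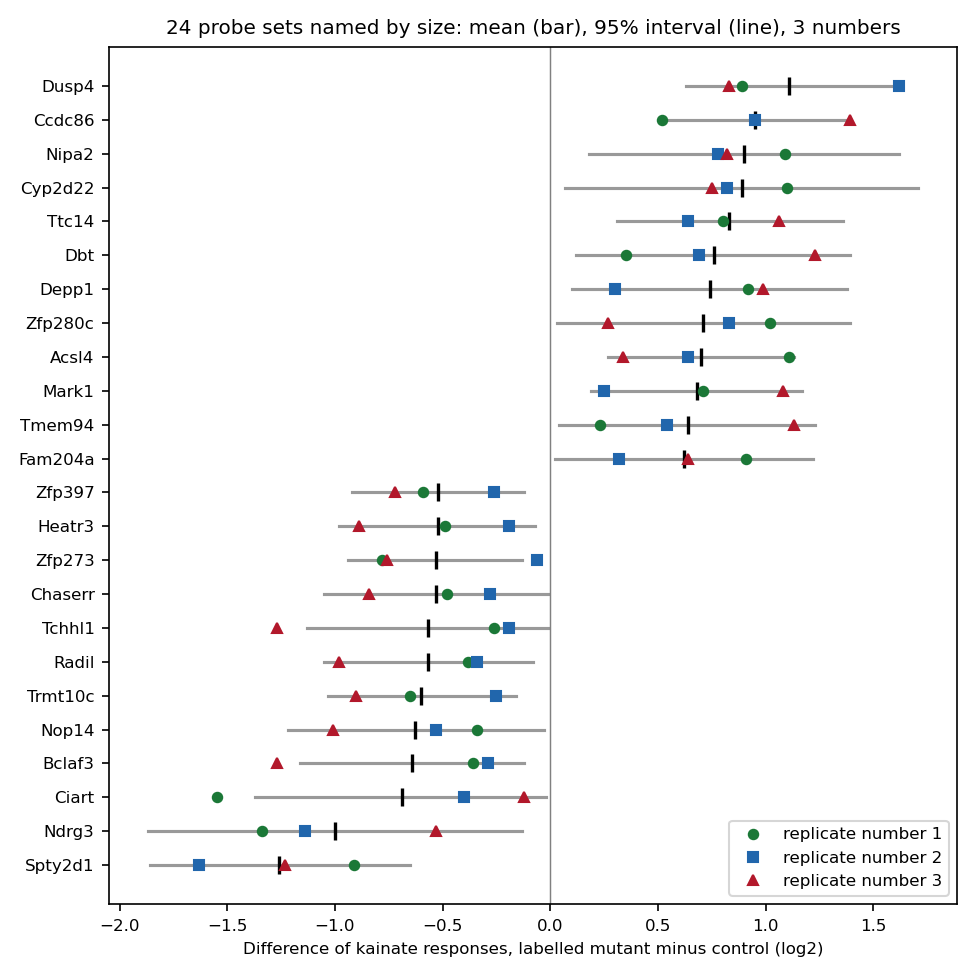
Difference of kainate responses (labelled mutant minus control, log2) for the 12 largest positive and 12 largest negative named genes, with the value of each replicate number and the 95% interval of the mean. The means run from 0.62 for Fam204a to 1.11 for Dusp4 and from -0.52 for Heatr3 to -1.26 for Spty2d1.

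Spty2d1 encodes a histone chaperone of the SPT2 family. It read 6.65, 6.79 and 6.25 in control saline arrays and 8.37, 8.60 and 8.03 in control kainate arrays, where it rose by a factor of 3.42 (limma, Benjamini-Hochberg adjusted p = 0.00399). In labelled mutants it read 5.61, 5.89 and 5.55 after saline and 6.43, 6.06 and 6.11 after kainate, a response of 0.52 or a factor of 1.43. The labelled mutant saline arrays were all below the control saline arrays, and the labelled mutant kainate arrays did not reach the control kainate arrays. The difference was -1.26 (95% interval -1.86 to -0.65), with -0.91, -1.63 and -1.23 for the 3 numbers. Another tested probe set of the gene, with a mean level of 4.72, did not show the rise. Its responses were 0.35 in controls and -0.12 in labelled mutants, a difference of -0.47 (95% interval -1.02 to 0.08) with -0.49, -0.06 and -0.86 for the numbers. An untested, still dimmer one gave -0.92, with -2.12 in number 1.

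Ciart, a repressor in the circadian clock, read 5.77, 5.99 and 6.10 in control saline arrays, 7.69, 7.81 and 7.77 in control kainate arrays, 5.89, 5.68 and 5.60 in labelled mutant saline arrays and 6.26, 7.09 and 7.15 in labelled mutant kainate arrays. The saline arrays overlapped, and all 3 labelled mutant kainate arrays were below all 3 control ones. The difference of -0.69 (95% interval -1.37 to -0.02) was uneven, at -1.55 for number 1, -0.40 for number 2 and -0.12 for number 3.

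Ndrg3, which encodes a lactate-binding protein of the NDRG family, read 6.87, 7.15 and 8.02 in control saline arrays and 7.21, 7.04 and 6.74 in control kainate arrays. It read 7.35, 7.74 and 7.88 in labelled mutant saline arrays and 6.34, 6.49 and 6.07 in labelled mutant kainate arrays, the 3 lowest of the 12. The difference was -1.0 (95% interval -1.87 to -0.13).

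The other 9 genes with a lower difference were dimmer, with mean levels from 4.08 for Chaserr to 5.12 for Radil. They were Bclaf3 (-0.64), Nop14, a factor in the maturation of the small ribosomal subunit (-0.63), Trmt10c, a subunit of mitochondrial RNase P (-0.60), Tchhl1 (-0.57), Radil, an effector of Rap (-0.57), the zinc finger genes Zfp273 (-0.53) and Zfp397 (-0.52), the long noncoding RNA gene Chaserr (-0.53) and Heatr3 (-0.52). All 9 had a positive mean response in controls and a negative one in labelled mutants, as did 91 of the 95 lower probe sets from which they came. Each of the 9 differed most in number 3 except Zfp273, whose values were -0.78, -0.06 and -0.76. Number 3 is also where the array medians over all probe sets differed most (-0.40), and the part of that shift in these values was not tested beyond the scalings given. After quantile normalization 7 of the 12 lower genes and 27 of the 115 lower probe sets kept an unadjusted p under 0.05, against 24 of the 32 higher probe sets. With the replicate block added to that normalization, 12 of the 12 lower genes, 68 of the 115 lower probe sets and 29 of the 32 higher ones did. Without number 1, 2 or 3, the lower genes that kept it were 8, 6 and 2 of the 12, and with 1 difference per number 7. For Spty2d1 the quantile-normalized difference was -1.30 and for Dusp4 1.04, and for Ciart, which lost its unadjusted call, it was -0.73. Of the 24 genes, 7 had further tested probe sets, 10 in all, and 5 of these had the sign of the probe set named here. Opposite signs were given by those of Dusp4 (-0.20), Ttc14 (-0.16 and -0.45) and Dbt (-0.18), and by 1 of those of Fam204a (-0.37, with 0.18 at another).

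**Figure D3:**
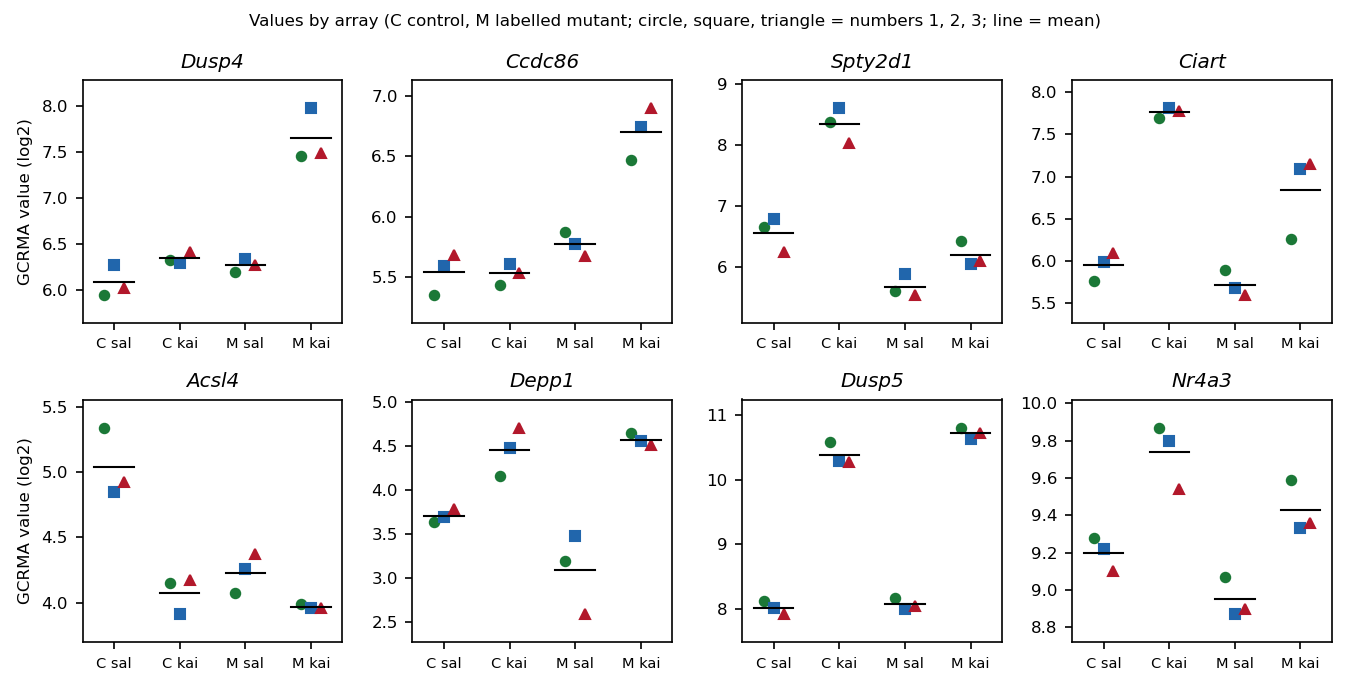
Log2 values of Dusp4, Ccdc86, Spty2d1, Ciart, Acsl4, Depp1, Dusp5 and Nr4a3 in each of the 12 arrays, by group, with the mean of each group and arrays marked by replicate number. For Dusp4 the labelled mutant kainate arrays lie at 7.46 to 7.98 and every other array at or below 6.42, and for Spty2d1 the control kainate arrays lie at 8.03 to 8.60 and every other array at or below 6.79.

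The genes that responded to kainate in the average of both genotypes gave the clearest view of how far the responses matched. That average and the difference of responses are estimated from orthogonal contrasts of the same arrays, so choosing on the average does not by itself set the difference. Limma with Benjamini-Hochberg adjustment called 19 probe sets higher with kainate (0.300%) and 7 lower (0.111%). Among the 19 the median response was 1.10 in controls and 1.30 in labelled mutants. The median difference was 0.17 (range -1.26 to 1.11), against -0.02 over all tested probe sets. It was above 0 in 14 of the 19, against 46.8% of all tested probe sets. In all 3 numbers 7 were above 0 and 2 below, against 13.0% and 21.1% of all tested probe sets. By number the median difference was 0.06, 0.21 and 0.23. Among the 7 lower probe sets the median response was -0.73 in controls and -0.57 in labelled mutants. Their median difference was also 0.17, with 5 of 7 above 0, and by number it was 0.27, 0.04 and 0.26. With the replicate block 140 probe sets passed as higher and 343 as lower, and their median differences were smaller, 0.08 and 0.10. These did not keep one sign over the numbers. They were -0.08, 0.13 and 0.17 for the higher probe sets, and 0.19, -0.03 and 0.16 for the lower ones.

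Dusp5, a nuclear phosphatase specific for ERK, had the largest averaged response, 2.51. It read 8.12, 8.01 and 7.91 in control saline arrays, 10.58, 10.29 and 10.27 in control kainate arrays, 8.17, 7.99 and 8.04 in labelled mutant saline arrays and 10.81, 10.63 and 10.72 in labelled mutant kainate arrays. Saline arrays overlapped between genotypes, and the labelled mutant kainate arrays were all above the control ones by a small margin. The responses were 2.37 and 2.65, and the difference was 0.28 (95% interval -0.08 to 0.64), with 0.17, 0.35 and 0.32 for the 3 numbers.

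Transcription factors of the immediate early class lay on both sides of 0. Maff, a small MAF protein, responded by 2.15 in controls and 2.65 in labelled mutants, a difference of 0.50 (95% interval -0.35 to 1.35) with -0.25, 1.43 and 0.34 for the numbers. Csrnp1, a nuclear protein induced by axin, responded by 2.34 and 2.04, a difference of -0.31 that came from number 1 alone (-1.01, 0.06 and 0.02). Fosl2, a partner of JUN in AP-1, responded by 1.03 and 1.06, and its difference was 0.03 (95% interval -0.47 to 0.52), with -0.05 at its other probe set. It turned to -0.00209 with arrays centred and -0.02 after quantile normalization. Nr4a3, an orphan nuclear receptor that is a known CREB target, read 9.28, 9.22 and 9.10 in control saline arrays and 9.87, 9.80 and 9.54 in control kainate arrays. In labelled mutants it read 9.07, 8.87 and 8.90 after saline and 9.59, 9.33 and 9.36 after kainate. Labelled mutant saline arrays were below all control saline arrays, yet the responses were 0.54 and 0.48, a difference of -0.06 (95% interval -0.44 to 0.32).

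Among signalling and synaptic genes, Rgs4, which speeds GTP hydrolysis on G protein alpha subunits, responded by 1.10 and 1.30, a difference of 0.20 (95% interval -0.13 to 0.54). Vgf, a neuropeptide precursor induced by activity, responded by 1.00 and 1.35, a difference of 0.35 (95% interval -0.28 to 0.98). Homer1, whose short activity-induced form loosens synaptic scaffolds, responded by 1.10 and 1.49 at a dim probe set, a difference of 0.39 (95% interval -0.57 to 1.34). At a brighter probe set of Homer1, without a kainate response, the difference was -0.06. Trib1, a pseudokinase, had a difference of 0.28 with a wide spread (-0.61, 0.18 and 1.27), and Spry2, an inhibitor of growth factor signalling, had 0.14 (-0.03, 0.54 and -0.09). Dot1l, the histone H3 lysine methyltransferase of transcribed genes, had -0.43 (95% interval -1.04 to 0.17). The remaining higher genes were Irf2bp2 (0.10), Fbxo33 (0.13), Spry1 (0.17) and a probe set without a gene symbol (0.27). Of the lower genes besides Acsl4, Mex3c, an RNA-binding ubiquitin ligase, gave 0.36 with 0.33, 0.45 and 0.29 for the numbers. Zcchc14 gave 0.23, Washc4 -0.03 and Cep19 -0.08, and Spred1 gave 0.17 and 0.06 at separate probe sets.

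**Figure D4:**
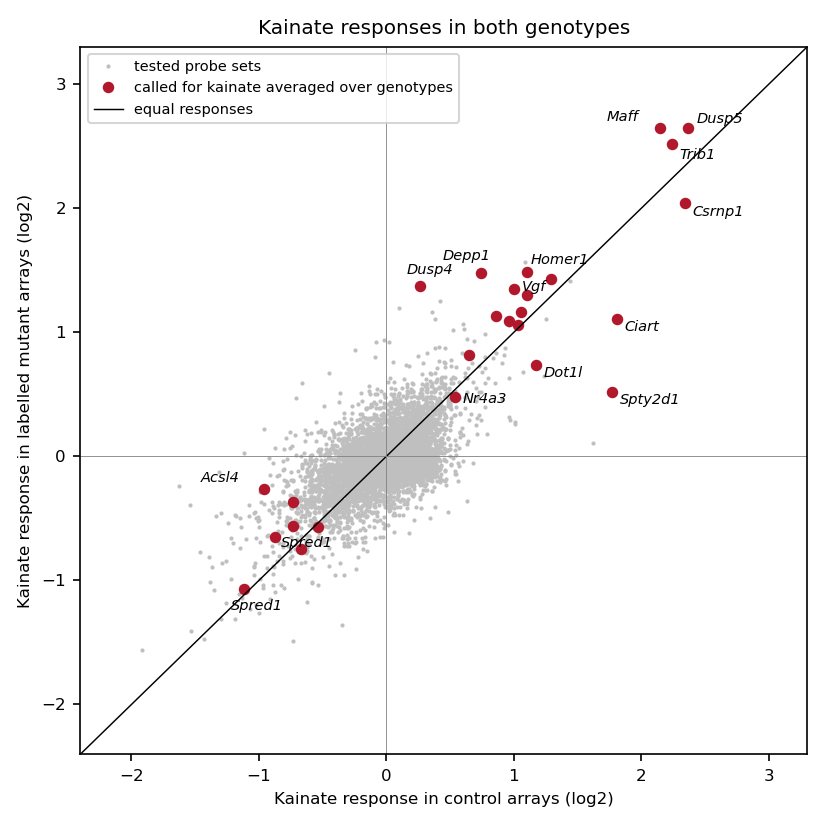
Kainate response in labelled mutants against that in controls (log2) for all tested probe sets, with the 26 that passed for the averaged response marked and the diagonal of equal responses drawn. Dusp5 at 2.37 and 2.65 lies near the diagonal, Spty2d1 at 1.77 and 0.52 lies below it, and Dusp4 at 0.26 and 1.37 lies above it.

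The number of kainate-responsive probe sets rested strongly on which replicate numbers entered. Without number 1, 1412 probe sets passed for the averaged response, and without number 2 or number 3 the counts were 5 and 1. The difference of responses called 0 in each of these fits. Over the 555 probe sets that rose without number 1, the median response of all 3 numbers was 0.33 in controls and 0.35 in labelled mutants, with a median difference of 0.02. Over the 857 that fell, it was -0.46 and -0.35, with a median difference of 0.13. By number the median difference changed sign, at -0.15, 0.02 and 0.20 for the 555, and 0.19, -0.01 and 0.19 for the 857. Neither the 0.02 nor the 0.13 was tested, and both can be read only beside the -0.02 over all tested probe sets.

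The pathway and cell type lists were read with 1 probe set per gene, the brightest, and set beside all 4617 tested genes. Of those genes, 631 were higher in all 3 numbers and 892 lower, with a median difference of -0.01, and 2245 (48.6%) lay above 0 and 2372 (51.4%) below. No member of any list passed for the difference in limma with Benjamini-Hochberg adjustment. The brightest probe set was not always one that rose with kainate, and list medians and counts rest on it. Homer1 entered with a difference of -0.06, while its dimmer probe set, called for the averaged response, gave 0.39. Srf entered with a control response of -0.17, against 0.73 and 0.68 at its other probe sets. Dim members are to be read beside the lowest bin of mean level, up to 4.71, where the median difference was -0.17. Lower members in that bin include Nfil3 (mean level 4.23), Nts (4.41), Cgref1 (4.46), Atf6 (4.32), Kcnf1 (4.20) and Hsp90aa1 (3.95). Acsl4 (4.33) and Depp1 (3.95) lie in it with differences above 0. Each list could be read only in part. Of 54 listed CREB pathway genes 30 were on the array, of 27 feedback genes 16, and of 56 activity-regulated effector genes 28.

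Members of the CREB pathway itself showed small differences. Of 25 tested genes for CREB relatives, their kinases, phosphatases and coactivators, 15 lay above 0 and 10 below, with a median of 0.04 and a range of -0.39 to 0.44. In all 3 numbers 4 were higher and 1 lower. Atf6, a sensor of endoplasmic reticulum stress, gave -0.39 with -1.02 from number 2. The coactivator gene Ep300 gave -0.25, the adenylyl cyclase gene Adcy1 -0.14, and the calcineurin subunit gene Ppp3cb 0.15, with -0.07 and 0.39 at its other probe sets. Creb1 gave 0.10 (0.58, -0.09 and -0.18).

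Known CREB target genes had differences between -0.47 and 0.44, but of 44 listed only 17 were on the array and 11 were tested. Of 11 tested, 8 lay below 0 and 3 above, with a median of -0.06, and 2 were lower and 1 higher in all 3 numbers. Nfil3, a basic leucine zipper repressor, gave -0.47 (95% interval -1.01 to 0.08), Vgf 0.35, the growth regulator gene Cgref1 -0.15, and the neurotensin gene Nts -0.15. Of 35 listed immediate early transcription factor genes, 14 were on the array and 10 were tested. Of these 10, 6 lay below 0 and 4 above, with a median of -0.13, and 3 were lower and 1 higher in all 3 numbers. Srf, the serum response factor, gave -0.51 (95% interval -1.12 to 0.09), with -0.61, -0.49 and -0.43 for the numbers. Its responses at that probe set were -0.17 in controls and -0.69 in labelled mutants. The other Srf probe sets disagreed, with responses of 0.73 in both genotypes (difference -0.000558) and of 0.68 and 0.60 (difference -0.08). Nfil3 and several others stand in both lists.

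Negative feedback genes of kinase signalling had a median of 0.09 over 15 genes, 9 of them above 0, and their medians by number were 0.00245, -0.07 and 0.10. In all 3 numbers 4 were higher and 1 lower. Besides Dusp4 and Dusp5, Pik3ip1, an inhibitor of PI3 kinase, gave 0.38 (0.54, 0.47 and 0.14) but -0.19, 0.10 and -0.17 at its other probe sets. Dusp10, a phosphatase for p38 and JNK, gave -0.33 (-0.20, -0.10 and -0.70) at a mean level of 4.02. The median over 23 activity-regulated effector genes was 0.12, and 15 of them lay above 0. In all 3 numbers 10 were higher and 3 lower. That list includes Ccdc86, Spty2d1, Acsl4, Depp1 and Ciart, which were placed there with earlier results of these arrays known, so its counts are not independent of them.

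Lists of other functions had medians between -0.10 and 0.12. Sterol genes had a median of 0.12 over 13, with 3 higher and 0 lower in all 3 numbers. Among them Mylip, which marks the LDL receptor for degradation, gave 0.67 (0.97, 0.71 and 0.34), the sterol exporter gene Abcg1 0.38, Insig2, which retains SREBP factors, 0.25 (-0.16 at another probe set), and the SREBP escort gene Scap -0.21. The 4 genes for ionotropic glutamate receptors and their auxiliary subunits lay at or above 0, with a median of 0.10. They were Neto2, a kainate receptor partner (0.36), Gria3 (0.15), Gria1 (0.05) and Cacng2 (0.00388). Of 15 voltage-gated channel genes 8 lay below 0, with a median of -0.10, and those with the lowest p were the potassium channel genes Kcna2 (-0.43), Kcnf1 (-0.35) and Kcna1 (-0.29) and the calcium channel gene Cacna1b (-0.33). The 6 heat shock genes had a median of -0.07, with Hsp90aa1 at -0.37, Dnajb5 at 0.39, Hspa4l at 0.55 (-0.04 at another probe set) and Dnajb4 at -0.12.

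**Figure D5:**
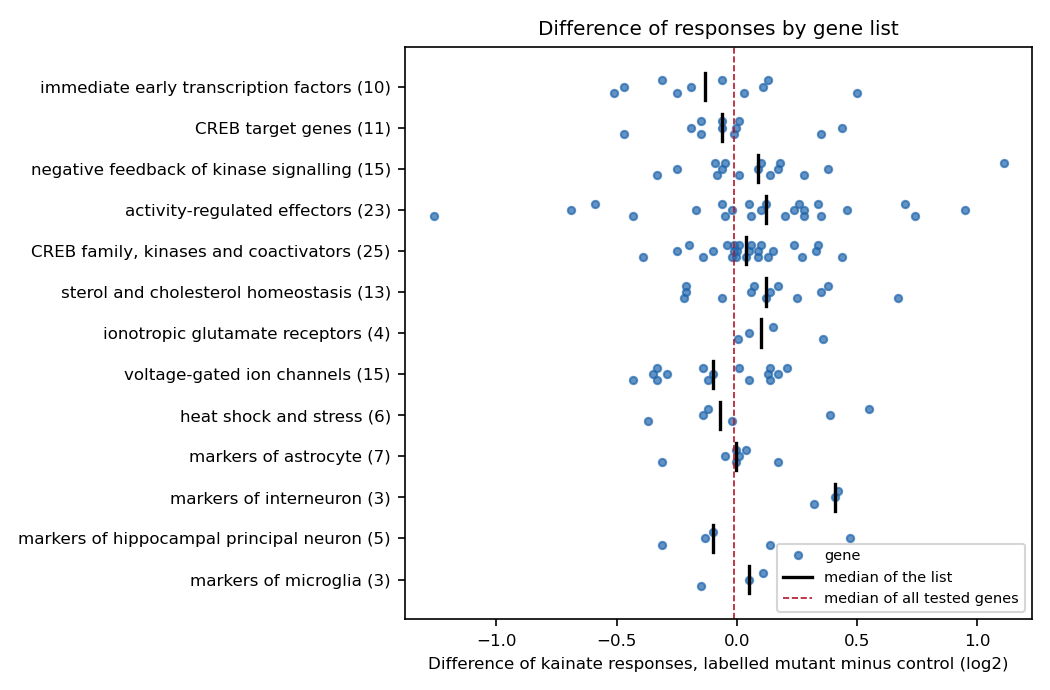
Difference of responses (log2) of the tested members of each gene list with at least 3 tested members, 1 point per gene, with the median of the list marked. Medians run from -0.13 for immediate early transcription factors to 0.41 for the 3 interneuron markers, beside -0.01 over all tested genes.

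No cell type marker passed for the difference, and the value farthest from 0 was that of Clic6. Clic6, the 1 measured marker of choroid plexus out of 8 listed, read 6.28, 6.72 and 6.48 in control saline arrays, 4.90, 5.76 and 4.19 in control kainate arrays, 5.30, 6.38 and 7.02 in labelled mutant saline arrays and 5.08, 6.83 and 5.63 in labelled mutant kainate arrays. Its difference was 1.16 (1.17, 1.40 and 0.90), with a 95% interval of -0.53 to 2.85. Whether tissue beside the hippocampus had a part in any result above was not tested. The 3 interneuron markers gave 0.41 for Maf, 0.32 for Cnr1 and 0.42 for Gad2, with intervals that include 0, and a dimmer Maf probe set gave -0.42. The 7 astrocyte markers had a median of -0.00365 (Sox9 -0.31 and -0.14 at another probe set, Ednrb 0.17, Slc1a2 -0.05, Aldh1l1 0.04 and -0.07 at another), the 5 principal neuron markers -0.10 (Calb1 0.47 and -0.05 at another probe set, Slc17a7 -0.13, Neurod2 -0.31, Bcl11b 0.14 and -0.39 and 0.04 at others) and the 3 microglia markers 0.05 (Tmem119 -0.15, Siglech 0.11, Olfml3 0.05). The endothelial markers Flt1 and Slco1a4 gave 0.06 and 0.04, and the myelin gene Mobp 0.24, with 0.49 and 0.16 at its other probe sets.

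Promoters were then read for the element that CREB and CREM bind. The search was for the full CRE, TGACGTCA, which reads the same on both strands, in RefSeq windows (GRCm38.p6) from 250 bases before to 50 after each start site. It was present in 588 of 32851 windows (1.79%), in 549 of 27025 genes (2.03%) and in 136 of the 3749 tested genes with a window (3.63%). The shorter core site, TGACG or its complement CGTCA, which also lies within the full CRE, was present in 6837 windows (20.8%) and in 1373 tested genes (36.6%). The following upstream stretches are shown as picked examples of windows with and without these sites, with full or core sites in capitals. They do not stand for the genes as a whole. Each is written on the strand of its gene and ends just before the start site, except the Maff stretch, which is a 30-base piece around its CRE. Ccdc86 lies at chr19:10949267-10949516 (minus strand), Nr4a3 at chr4:48045055-48045304 (plus strand) and Spty2d1 at chr7:47008415-47008664 (minus strand), and the Maff piece comes from chr15:79347270-79347519 (plus strand).
Ccdc86: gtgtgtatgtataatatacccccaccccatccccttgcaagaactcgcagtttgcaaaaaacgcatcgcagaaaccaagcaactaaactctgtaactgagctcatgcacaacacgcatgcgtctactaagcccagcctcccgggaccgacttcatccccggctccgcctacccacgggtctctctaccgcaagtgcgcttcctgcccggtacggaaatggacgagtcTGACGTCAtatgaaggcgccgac
Nr4a3: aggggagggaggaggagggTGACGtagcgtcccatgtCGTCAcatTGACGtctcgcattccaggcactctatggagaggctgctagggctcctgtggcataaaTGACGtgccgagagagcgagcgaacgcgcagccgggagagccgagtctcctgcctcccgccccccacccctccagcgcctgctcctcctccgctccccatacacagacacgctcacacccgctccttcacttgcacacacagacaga
Spty2d1: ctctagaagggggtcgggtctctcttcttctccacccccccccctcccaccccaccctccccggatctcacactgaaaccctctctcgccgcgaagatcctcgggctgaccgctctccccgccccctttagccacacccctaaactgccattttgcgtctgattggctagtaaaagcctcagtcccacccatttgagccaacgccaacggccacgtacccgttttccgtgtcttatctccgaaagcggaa
Maff: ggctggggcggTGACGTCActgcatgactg

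Ccdc86 was the 1 gene with a full CRE among the 7 of the 12 largest higher genes that had a window, and its element starts 23 bases before the start site. None of the 11 largest lower genes with a window had one, and Spty2d1 had no core site in the window either. Maff, with a full CRE 29 bases before one of its start sites, gave 0.50, while Nr4a3, with 4 core sites, gave -0.06. Over all tested genes, the 136 with a full CRE had a median difference of -0.02, against -0.01 for the 3613 without. They were higher in all 3 numbers in 15.4% of cases against 13.8%, and lower in 19.1% against 19.1%. Core sites stood in the windows of 9 of 10 tested CREB target genes (90%) and 7 of 10 immediate early transcription factor genes (70%), against 36.6% of tested genes. They stood in 2 of 11 negative feedback genes (18.2%). The share was 42.9% for the largest higher genes, 36.4% for the largest lower ones and 40% for the genes higher with kainate. A full CRE stood in 0 of the 10 CREB target genes, 1 of the 10 immediate early genes and 1 of the 11 feedback genes. The 1373 genes with a core site had a median difference of -0.00373 and the 2376 without -0.01. A match of letters is not a bound site, and its absence from this window says nothing of the factor.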

How the data were processed

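The deposited table gives 1 log2 value per probe set and array, which the authors made with GCRMA in R 2.4.1, per the submitters' processing notes. GCRMA estimates and removes background from probe sequence before combining probes, and differences at low levels are sensitive to that step. Its settings and any batch are not stated in the sources used, and scanner files were not used here. Of 12477 entries, 66 control probe sets were removed. Of the 12411 left, 10581 had 1 gene symbol in the platform annotation, 178 several and 1652 none, and 10550 matched RefSeq gene identifiers, with 0 symbols changed.

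Limma 3.58.1 (R 4.3.3) fitted the 12 arrays with 1 coefficient for each group (lmFit, eBayes with trend, two-sided). Benjamini-Hochberg adjustment, with a threshold of 0.05, ran over all 6334 probe sets, and the fit was tested on simulated data. The groups share replicate numbers. Arrays of the same number in separate groups deviated together (18 pairs, r from 0.361 to 0.881). By number, r was 0.674 to 0.881 for number 1, 0.361 to 0.605 for number 2 and 0.416 to 0.696 for number 3. Numbers 2 and 3 also correlated with each other (0.309 to 0.583). Number 1 thus stood apart, and a pairing that separates number 2 from number 3 was little shown. What a number marks is not stated. The number as a block was an alternative, as were other filters and scalings, eBayes without trend and leaving out arrays.

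Genes were named by size of difference (up to 12 each way with 1 symbol, unadjusted p under 0.05 and one sign in all 3 numbers), by passing for kainate, or as the up to 4 members of each list with the lowest p. Members and lists were chosen with earlier results of these data known. The labels call the replicates biological, each a pool of 3 animals, and their number limits the precision.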

Additional observations from a re-analysis of the deposited data

Results flagged for a closer look

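For 6 of the genes named by size, the 3 control responses and the 3 labelled mutant responses lay on opposite sides of 0, while the limma test of the difference did not pass after Benjamini-Hochberg adjustment. Control responses were negative and labelled mutant responses positive for Ttc14 (difference 0.83) and Mark1 (0.68). Ttc14 responded by -0.44, -0.26 and -0.96 in controls and 0.36, 0.38 and 0.11 in labelled mutants, but its other tested probe sets gave -0.16 and -0.45. Mark1 responded by -0.26, -0.11 and -0.42 in controls and 0.45, 0.14 and 0.65 in labelled mutants. Control responses were positive and labelled mutant responses negative for Bclaf3 (-0.64), Nop14 (-0.63), Zfp273 (-0.53) and Chaserr (-0.53). These 4 are dim, with mean levels of 4.08 to 4.52. Opposite responses of this second kind were found in 229 of 6334 probe sets (3.62%), and of the first kind in 31 (0.489%). After quantile normalization these counts were 102 and 41. The 6 genes were chosen for large differences of one sign, which favours opposite responses, so these shares give the pattern no support. Of the probe sets from which they were taken, 46 of the 95 lower and 4 of the 31 higher had it.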

How the results depend on the processing

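The difference of responses called 0 probe sets in limma under every alternative run, with a lowest adjusted p of 0.214 (no filter). The 24 genes named by size kept their direction in all 562 comparisons. They were chosen for one sign in all 3 numbers, so leaving out a number could not turn them, and this count is no separate support. The cause of the changes below was not tested. With the replicate block, unadjusted calls were 158 higher and 408 lower, as a random block 97 and 447, with the block after quantile normalization 187 and 291, and 0 higher with 1 difference per number. Lower calls were 38 with centred arrays, 37 after quantile normalization and 2696 without a filter, and the filter at 6 left 16 higher and 7 lower. Leaving out arrays or numbers gave 14 to 143 higher and 13 to 313 lower. Kainate calls in controls, labelled mutants and the average (10, 11 and 26) became 37, 23 and 483 with the replicate block, 17, 18 and 254 as a random block and 26, 21 and 372 with quantile normalization and block. The average was 43 with centred arrays, and leaving out arrays or numbers gave 1 to 637, 1 to 596 and 1 to 1412, each highest without number 1. One sign in all 3 numbers, lower, held for 6137 without a filter and 339 with the filter at 6. The median over CRE genes, -0.02, was 0.06 with that filter (0.05 for genes without a CRE) and -0.00373 for core sites. Fosl2 turned to -0.00209 (centred) and -0.02 (quantile, also with block), and a Spred1 probe set to -0.01 (quantile, also with block). Directions also turned on leaving out arrays or numbers: Trib1 ranged from -0.22 to 0.72, Csrnp1 -0.51 to 0.04, Spry2 -0.06 to 0.26, Irf2bp2 -0.25 to 0.50, Fosl2 -0.16 to 0.17, Fbxo33 -0.06 to 0.28, Spry1 -0.19 to 0.39, Nr4a3 -0.16 to 0.01, Washc4 -0.11 to 0.04, Cep19 -0.20 to 0.15, and Spred1 -0.07 to 0.46 and -0.34 to 0.32.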
